A study of Mus musculus with 46 samples.

Results

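The SLC25 family is the set of solute carriers of the inner mitochondrial membrane. Its members were taken by gene symbol, as every symbol made of Slc25a and digits together with the uncoupling proteins Ucp1, Ucp2 and Ucp3, and numbered 50 of the 55487 genes in the files. RNA had been sequenced in 46 mouse libraries of 3 experiments. The first held islets labelled Tfam control (5 female and 3 male libraries) or Tfam KO (4 female and 2 male). The second held islets labelled Clec control or Clec KO, the gene being written Clec16a in the series' design, on diets named RFD (4 control and 4 KO libraries) and HFD (6 control and 5 KO), which are not written out. The third held 6 livers labelled control, 4 labelled Mfn DKO and 3 labelled Tfam KO, with AAV as part of the sample names. Tfam encodes the factor that packages mitochondrial DNA and takes part in starting its transcription. Mfn1 and Mfn2 encode the mitofusins of the outer membrane, and Clec16a encodes a regulator of mitophagy. The labels give no age, strain, Cre driver or promoter, no sex outside the Tfam islets, and no statement on pooling of animals. Islets had been kept in culture overnight and livers had been frozen.

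As background, mitochondrial carriers are small membrane proteins that bind 1 substrate at a time and pass it across the inner membrane, most often in exchange for another. They let ADP and phosphate in and ATP out, move citrate, malate, aspartate and glutamate between the matrix and the cytosol, and supply the matrix with cofactors, nucleotides, glutathione and iron. In β cells such shuttles link glucose breakdown to insulin release, and in hepatocytes they serve the urea cycle, fat synthesis and glucose production. Uncoupling proteins belong to the same family, and Ucp1 is known for heat production in brown fat.

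The carriers of pyrimidine nucleotides, Slc25a33 and Slc25a36, supply the matrix with building blocks of mitochondrial DNA and RNA, and they changed in different comparisons below. Slc25a36 lies on chromosome 9 (97074961 to 97111157, minus strand) and Slc25a33 on chromosome 4 (149744036 to 149774277, minus strand), positions from GENCODE M21 on GRCm38. Their promoter sequences are shown because both hold an E-box (CACGTG, its own reverse complement), given in capitals. They were taken from RefSeq on GRCm38.p6 and run 5′ to 3′ on the minus strand, chr9:97111158-97111291 for Slc25a36 and chr4:149774268-149774517 for Slc25a33. The first was ended where the GENCODE gene model begins, and the last 10 bases of the second, which hold its E-box, lie within the gene model.
Slc25a36: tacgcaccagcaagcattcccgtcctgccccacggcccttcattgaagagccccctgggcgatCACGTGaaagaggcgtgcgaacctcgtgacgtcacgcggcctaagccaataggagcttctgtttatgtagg
Slc25a33: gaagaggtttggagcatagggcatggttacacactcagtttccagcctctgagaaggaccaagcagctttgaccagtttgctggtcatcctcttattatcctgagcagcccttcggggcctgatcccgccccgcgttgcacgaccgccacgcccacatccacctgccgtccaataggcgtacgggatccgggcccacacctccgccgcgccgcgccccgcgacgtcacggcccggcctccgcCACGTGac

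The E-box began 187 bases before the RefSeq start of Slc25a36 and 8 bases before that of Slc25a33. The RefSeq table held 49 windows, from 250 bases before to 50 bases after a start, for 39 of the members. The E-box was found in 8 of the 49 windows (16.3%), of 7 members, and in 7.15% of all 32851 windows. Median GC content was 59.7% in the member windows and 52.7% in all windows, and its part was not tested. The other motifs searched on both strands were TGATGNAA, the core of a CEBP-ATF response element, in 0 member windows and 3.97% of all of windows, and TCAAGGTCA, a site of monomeric nuclear receptors, in 0 and 0.423%. Such a match describes letters in a window and is not evidence of binding.

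A Tfam islet library held 55223041 to 83342809 counts, a Clec16a islet library 16235173 to 55810879 and a liver library 41961114 to 56894510. Levels are given as counts per 1000000 (CPM) on library sizes scaled by TMM, and genes were compared with each other in the deposited TPM, which divide by gene length. Changes were tested with edgeR's quasi-likelihood F-test within each experiment, and a gene was called at a Benjamini-Hochberg adjusted p of 0.05 or less over all genes tested. The filter on low counts kept 44 members for the Tfam islet experiment, 42 for the Clec16a experiment and 45 for liver. Slc25a41 and Slc25a54 had 3 counts or fewer in every library. Of the members, 15 share exon bases with another gene, among them Ucp2 with Dnajb13 and Slc25a33 with the antisense gene Gm13068, whose reads cannot be told apart because the strand setting of the counting is not given.

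The targeted genes were read first. Tfam stood at 16.0 to 18.9 CPM in the Tfam KO islets and 37.8 to 44.7 in their controls, and at 13.1 to 15.9 in the Tfam KO livers and 54.1 to 66.2 in control livers. In the Mfn DKO livers Mfn1 stood at 15.6 to 25.3 CPM against 67.8 to 88.3, and Mfn2 at 32.3 to 45.1 against 113 to 191. Clec16a was not lower in the islets labelled Clec KO, at 23.4 to 30.03 CPM against 20.9 to 28.4 on RFD and 23.6 to 32.9 against 21.4 to 31.8 on HFD, so those libraries are called the islets labelled Clec16a KO throughout. β-cell markers (Ins1, Ins2 and 6 others) summed to 105594 CPM or more in every islet library and to at most 498 in the livers, where 8 hepatocyte markers summed to 22589 CPM or more.

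Control islets and control livers expressed different carriers. Islets were led by Slc25a4 (median 184 TPM over 18 libraries), Slc25a5 (158), Slc25a39 (142), Slc25a3 (121), Slc25a1 (109) and Ucp2 (90.3). Livers were led by Slc25a47 (median 576 TPM over 6 libraries), Slc25a5 (566), Slc25a39 (319), Slc25a1 (250), Slc25a13 (178) and Slc25a10 (156). Of 48 members with over 3 counts in a control library, 11 were higher in every islet library than in any liver, 23 were higher in every liver, and 14 overlapped. Over all 27899 genes counted the same way, islets lay above in 25.4% and livers in 13.8%, so that 39.2% did not overlap. Tissue and experiment cannot be told apart here, and no test was made of these levels.

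**Figure D1:**
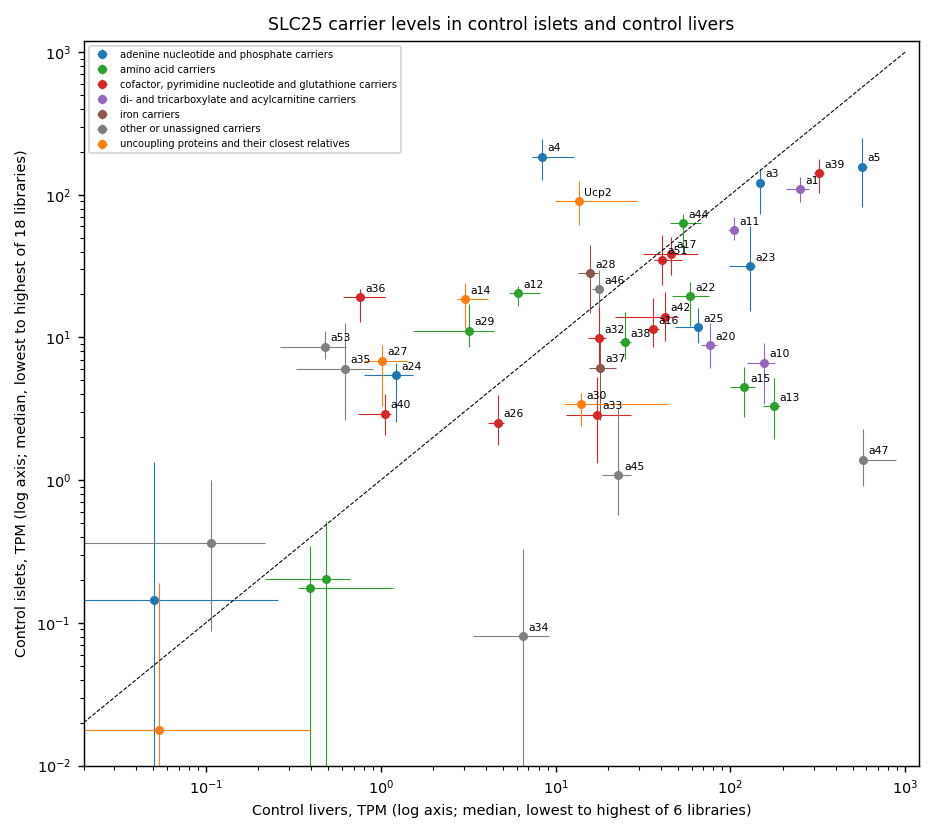
Level of single carriers in control livers (x axis, TPM, log scale) and control islets (y axis, TPM, log scale); points are medians over 6 livers and 18 islet libraries, lines run from the lowest to the highest library, colour gives the role and the dashed line marks equal levels. Slc25a4, Slc25a36 and Ucp2 lie far above the dashed line, and Slc25a47, Slc25a13 and Slc25a10 far below it.

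The adenine nucleotide carriers, which exchange ADP for ATP, differed most plainly by isoform. Slc25a4, the isoform known from heart and muscle, stood at 127 to 244 TPM in control islets and 7.35 to 12.8 TPM in control livers, a ratio of medians of 22.1. Slc25a5, the isoform of growing and many other cells, was the higher one in liver. Slc25a4 therefore made up a median of 52.8% of the TPM of Slc25a4 plus Slc25a5 in female and 55.5% in male Tfam control islets, 61.5% and 59.9% in Clec16a control islets on RFD and HFD, and 1.47% in control livers.

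Among the carriers of metabolites, Slc25a47, which is known for its expression in liver, stood at 547 to 880 TPM in livers and 0.914 to 2.28 TPM in islets, a ratio of medians of 414. Slc25a13, the aspartate and glutamate carrier that feeds the urea cycle, was 53.6 times higher in livers by median TPM, and Slc25a10, the dicarboxylate carrier, 23.5 times. The other aspartate and glutamate carrier, Slc25a12, took 3.24% of the TPM of Slc25a12 plus Slc25a13 in control livers and 83.8 to 88.4% in the 4 control islet groups, a pair chosen after its values were seen. The pyrimidine nucleotide carriers divided in the same way. Slc25a36 stood at a median of 19.1 TPM in islets and 0.763 in livers, and Slc25a33 at 2.88 in islets and 17.3 in livers. Slc25a36 thus made up 4.33% of their sum in control livers and 83.3 to 90.5% in control islets. Other pairs did not divide so sharply. By median, Slc25a37 made up 54.9% of Slc25a37 plus Slc25a28 in control livers and 14.5 to 17.7% in the control islet groups. Slc25a15 made up 99.6% of Slc25a15 plus Slc25a2 in control livers and 95.4 to 96.8% in those groups. The pair with Slc25a2 was also chosen after its values were seen.

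**Figure D2:**
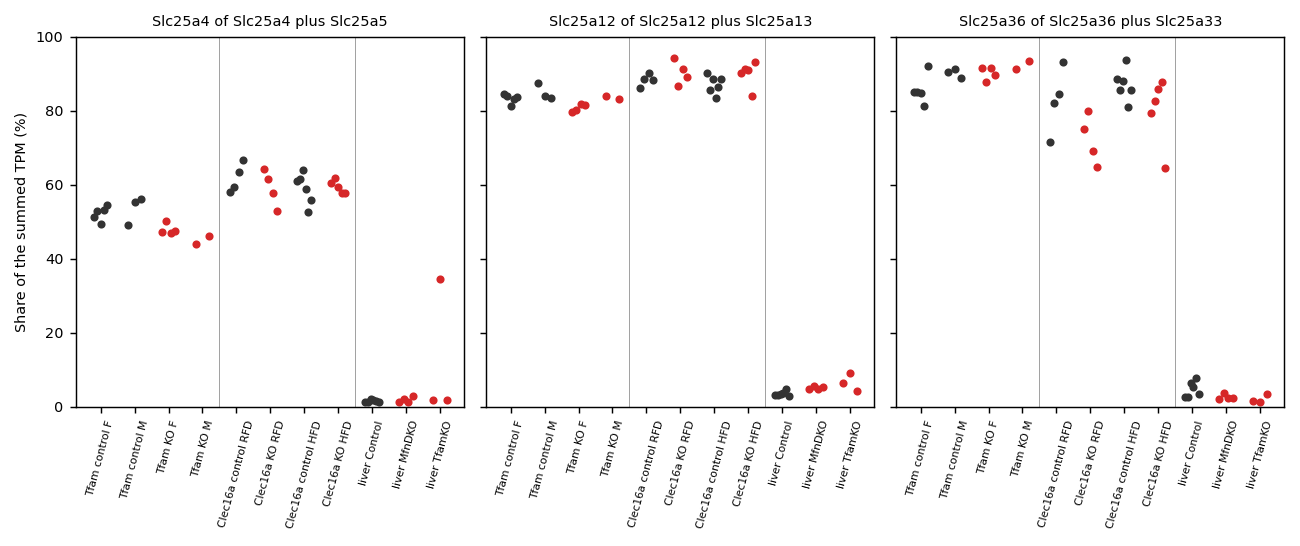
Share (y axis, percent of the summed TPM) of the first gene in 3 pairs of related carriers, 1 point per library and 1 column per group, control in black and KO in red. Slc25a4, Slc25a12 and Slc25a36 made up at least 44.1% of their pairs in every islet library and at most 9.18% in every liver except 1 Tfam KO liver, where Slc25a4 reached 34.4%.

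The uncoupling proteins were uneven. Ucp2 stood at 61.7 to 124 TPM in control islets and 9.98 to 29.2 TPM in control livers. Ucp1 and Ucp3 had medians of 0.018 and 0.031 TPM in control islets and of 0.054 and 0 TPM in control livers, near or under the level of 3 counts.

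In the Tfam KO islets, the pyrimidine nucleotide carrier Slc25a36, the glutathione carrier Slc25a39 and its relative Slc25a40, and both iron carriers rose, and Ucp2 and its relative Slc25a14 fell. Of the 44 members tested, 9 were higher and 5 lower (31.8%), where 20.9% of all 19752 genes were called, 11.6% higher and 9.29% lower. The members' median log2 fold change was 0.01, against -0.01 over all genes. For 6 of 44 members (13.6%) the KO and control libraries did not overlap, against 7.49% of all genes. All 14 called members had the same direction in females and in males. They were called from these same libraries, so this is not a separate check. By role, 4 of 11 carriers of cofactors, pyrimidine nucleotides and glutathione rose and 1 fell, both iron carriers rose, and 2 of 4 tested uncoupling proteins and relatives fell. Only the words biol rep in the titles bear on whether libraries come from separate animals, so p-values measure the spread between these samples. In whole islets, fewer cells of a type and less RNA per cell cannot be told apart.

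Slc25a36 stood at 88.3, 91.2, 83.5, 79.2 and 91.0 CPM in the female controls and 93.3, 90.8 and 95.8 in the male controls. It stood at 154, 122, 142 and 135 CPM in the female KO islets and 146 and 146 in the male ones. All 6 KO libraries were above all 8 controls, with a mean of 141 ± 10.96 against 89.1 ± 5.38 CPM (SD, n = 6 and 8), a log2 fold change of 0.66 (SE 0.06, adjusted p = 4.37e-07). The other pyrimidine nucleotide carrier, Slc25a33, had a log2 fold change of 0.12 (adjusted p = 0.673).

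Slc25a39, which carries glutathione into the matrix, stood at 128, 130, 158, 186 and 137 CPM in the female controls and 127, 145 and 139 in the male ones. It stood at 224, 225, 245 and 236 CPM in the female KO islets and 226 and 236 in the male ones. The groups did not overlap, and the log2 fold change was 0.69 (SE 0.08, adjusted p = 1.10e-05). Its close relative Slc25a40 stood at 16.3, 15.0, 15.0 and 15.0 CPM in female and 16.1 and 19.8 in male KO islets, above controls at 12.1 to 14.8 CPM (log2 fold change 0.27, SE 0.07, adjusted p = 0.00831).

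Both mitoferrins, which bring iron into the matrix for heme and iron-sulfur clusters, were called higher. Slc25a28 stood at 44.3 ± 4.03 CPM in KO against 35.1 ± 4.66 in control islets (SD, n = 6 and 8; log2 fold change 0.35, adjusted p = 0.000121). Within each sex its groups did not overlap, with 38.6 to 45.3 against 30.04 to 33.3 CPM in females and 48.3 to 49.0 against 39.0 to 42.9 in males. Slc25a37 stood at 16.9 ± 1.75 against 13.1 ± 3.76 CPM (log2 fold change 0.39, adjusted p = 0.0316), with overlapping groups and a male control at 21.3 CPM. Its call was lost under 11 of 21 alternatives, 9 of which left out 1 library.

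The amino acid carriers moved in both directions. Slc25a15, the ornithine carrier, stood at 17.9 ± 1.48 CPM in KO against 14.2 ± 1.28 in control islets (log2 fold change 0.34, adjusted p = 0.00336), without overlap. Slc25a29, a carrier of basic amino acids, fell by 0.48 on the log2 scale (SE 0.11, adjusted p = 0.00414). Its KO libraries stood at 7.88, 12.2, 11.7 and 11.7 CPM in females and 11.8 and 12.4 in males, below controls at 13.7 to 19.95 CPM.

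Ucp2, an uncoupling protein long studied in β cells, stood at 260, 239, 249, 259 and 203 CPM in female and 210, 221 and 245 in male controls. It stood at 195, 188, 170 and 161 CPM in female and 228 and 198 in male KO islets. The groups were apart in females and overlapped in males, and the log2 fold change was -0.31 (SE 0.08, adjusted p = 0.0131). The difference between the sexes was not called (interaction 0.35, adjusted p = 0.752). Slc25a14, a relative of the uncoupling proteins, stood at 17.0 to 19.5 CPM in KO and 20.6 to 25.3 in control islets (log2 fold change -0.35, SE 0.06, adjusted p = 0.000440).

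Slc25a5 was the only called member of the 7 tested adenine nucleotide and phosphate carriers, with 188 ± 11.9 CPM in KO against 152 ± 23.8 in control islets (log2 fold change 0.30, adjusted p = 0.0249). Its call was lost without female control 1, male KO 1 or male KO 2. Slc25a53 (-0.27, adjusted p = 0.0134) and Slc25a42, the carrier of coenzyme A (-0.22, adjusted p = 0.0199), fell on the log2 scale. The call of Slc25a42 was lost without female KO 4 or male KO 2. The remaining 2 called members, Slc25a26 and Slc25a44, rose by 0.38 and 0.17, and were named after their values were seen. Their calls were lost under 9 and 14 of 21 alternatives, 8 and 11 of which left out 1 library. None of the 4 tested carriers of di- and tricarboxylates and acylcarnitine was called.

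Sums of β-cell, lymphocyte and fibroblast markers moved with the genotype. For β-cell markers the groups were apart. The sum was 188202 to 294847 CPM in control and 105594 to 141250 CPM in KO islets, while alpha-cell markers summed to 23144 to 102483 and 37040 to 51763 CPM. Lymphocyte markers summed to 13.8 to 23.6 CPM in control and 5.99 to 8.70 in KO islets, also apart, and fibroblast and stellate markers to 17.7 to 40.5 (median 23.9) and 28.2 to 59.6 (median 37.8), which overlapped. Counts from mitochondrial genes made up 1.04 to 1.34% of the control and 0.187 to 0.253% of the KO libraries. Their part in the carriers' changes was not tested.

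Other transporters and enzymes of the same routes were read from lists. Of 25 other mitochondrial transporters, 4 rose and 1 fell (20%), near the 20.9% of all genes, with a median log2 fold change of 0.05. Vdac3 and Vdac1, pores of the outer membrane, rose by 1.21 (adjusted p = 5.14e-09) and 0.38 (adjusted p = 0.000592). Of 30 tested enzymes that work with the carriers, 10 rose and 3 fell (43.3%), with a median of 0.09. Aldh1l2, a folate enzyme of the matrix, rose by 2.44 (adjusted p = 5.76e-09), Got1, the cytosolic aspartate aminotransferase, by 1.12 (adjusted p = 2.22e-08) and Me1, the cytosolic malic enzyme, by 0.57 (adjusted p = 4.08e-05).

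**Figure D3:**
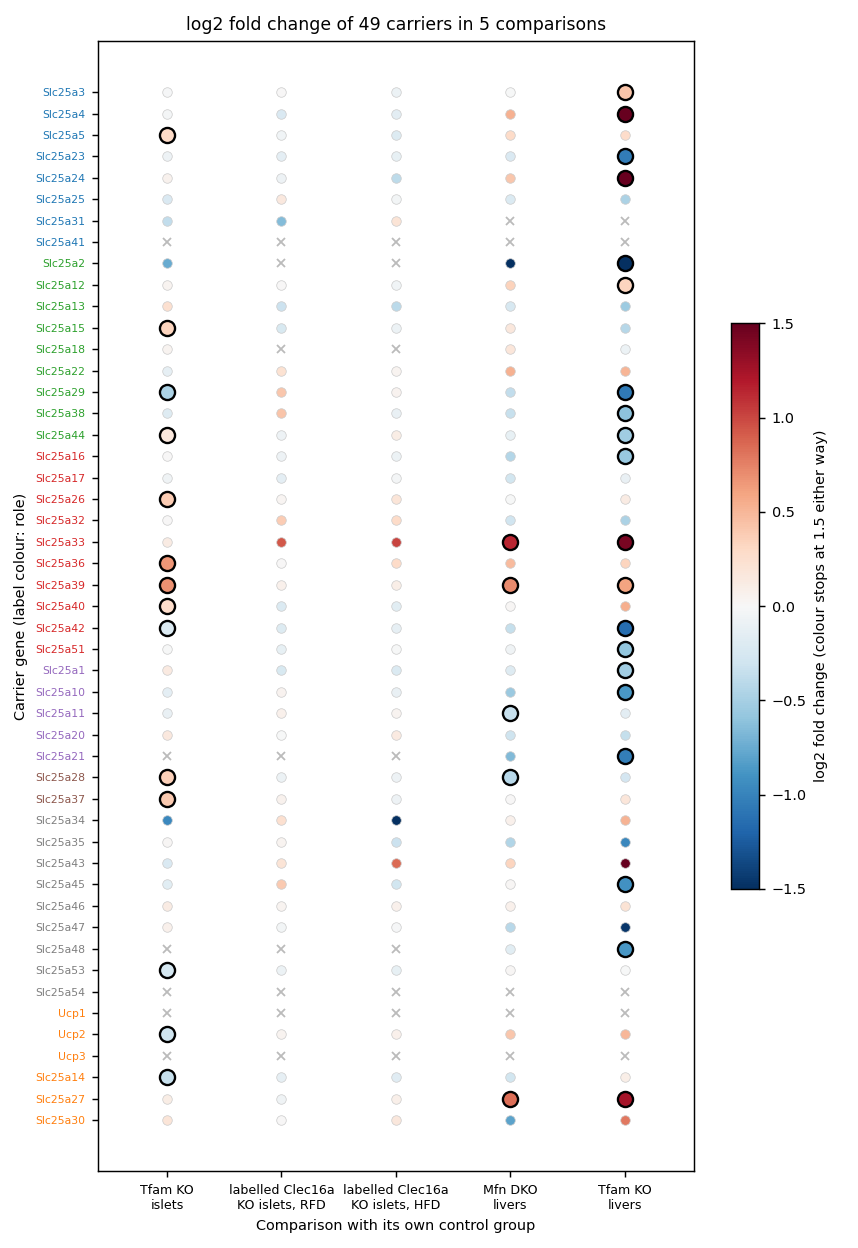
log2 fold change (colour, stopping at 1.5 either way) of 49 carriers (rows, label coloured by role) in 5 comparisons with their own controls (columns); a black ring marks an adjusted p of 0.05 or less and a grey cross a gene left out by the filter. Rings number 14 in Tfam KO islets, 0 in the islets labelled Clec16a KO on either diet, 5 in Mfn DKO livers and 20 in Tfam KO livers.

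In the islets labelled Clec16a KO, no carrier passed the test on either diet. On RFD 0 of 42 members were called, where 7.52% of 17254 genes were, and on HFD 0 of 42, where 9.58% were. At an unadjusted p under 0.05 there were 6 of 42 members on each diet, and 3867 of 17254 genes on RFD and 4001 on HFD. DESeq2's Wald test called 0 members on RFD and 1, Slc25a33, on HFD. The median log2 fold change of the members was 0.00 on RFD and -0.06 on HFD, against 0.00 over all genes on both. On RFD the groups did not overlap for 4 of 42 members (9.52%), against 15.1% of all genes, and on HFD for 0 of 42, against 2.6%. The 4 were Slc25a25, above its controls, and Slc25a1, Slc25a4 and Slc25a17, below them, named after their values were seen.

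Slc25a33 had the highest log2 fold change among the members on both diets. On RFD its controls stood at 4.91, 3.19, 2.69 and 1.19 CPM and the libraries labelled KO at 4.92, 3.91, 6.46 and 7.28 (log2 fold change 0.93, SE 0.38, adjusted p = 0.144). On HFD its controls stood at 1.11 to 2.97 CPM with a median of 2.30, and the libraries labelled KO at 4.88, 4.47, 3.41, 2.36 and 7.65 (1.01, SE 0.33, adjusted p = 0.0558). The lowest library labelled KO was below the highest control on each diet, so the groups overlapped. The value on HFD passed the threshold under 5 of 19 alternatives and not under the other 14, with adjusted p-values up to 0.181. It passed under DESeq2 (adjusted p = 0.0175), with a filter of 10 counts in every library (0.0495) and without the fourth KO library (0.0133). It also passed with the exocrine markers (0.0472) or the sequencing lane (0.0369) as a covariate.

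Slc25a36, called in the Tfam KO islets, stood at 74.9, 79.5, 73.9 and 68.1 CPM in the RFD libraries labelled KO and 62.7, 73.8, 74.8 and 84.0 in their controls. On HFD it stood at 95.4, 109, 105, 85.4 and 70.6 CPM against 64.4 to 85.8 (median 76.7) in controls (log2 fold change 0.29, adjusted p = 0.101). Without the fifth HFD library labelled KO this was 0.37 with an adjusted p of 0.0302. Under the other 18 of 19 alternatives Slc25a36 was not called on HFD. Slc25a32, a carrier of folate, stood at 25.0, 37.6, 30.4 and 32.4 CPM against 22.3, 27.8, 22.0 and 24.2 on RFD (0.38, adjusted p = 0.108), and was called without the first RFD library labelled KO (0.47, adjusted p = 0.0479). Slc25a32 was not called on RFD under the other 15 of 16 alternatives. It and the 2 genes in the next sentence were named after their values were seen. With the exocrine markers as a covariate, Slc25a29 (0.54, adjusted p = 0.0283) and Slc25a38 (0.55, adjusted p = 0.0301) were called on RFD.

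Ucp2 stood at 313 to 374 CPM in RFD and 319 to 444 in HFD control islets and at 326 to 384 and 355 to 442 in those labelled KO, with log2 fold changes of 0.04 (adjusted p = 0.882) and 0.08 (adjusted p = 0.672). Leaving out the fourth HFD library labelled KO raised the calls on HFD to 3 of 41 members, Slc25a33 higher (1.18) and Slc25a1 (-0.26) and Slc25a13 (-0.70) lower, and those over all genes to 19.98% of 16860. HFD against RFD gave 0 called members in either genotype, where 0.0406% of genes were called in control islets and 0.0116% in those labelled KO. At an unadjusted p under 0.05 there were 4 and 6 of 42 members, and 973 and 946 of 17254 genes. The interaction of genotype with diet gave 0 members and 0 genes, and 0 members and 406 genes at an unadjusted p under 0.05. The interaction of genotype with sex in the Tfam islets gave 0 members and 0 genes. At an unadjusted p under 0.05 it had 2 of 44 members, Ucp2 and Slc25a45, and 1230 of 19752 genes. DESeq2 called no member in these 4 comparisons.

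Marker sums differed between these groups as well. Exocrine markers summed to 4398 to 9769 CPM in control and 1917 to 13149 in KO-labelled islets on RFD, and to 9739 to 29642 and 8505 to 19665 on HFD. Markers of endothelial cells summed to 157 to 178 and 252 to 297 CPM on RFD and to 165 to 205 and 190 to 312 on HFD. Fibroblast and stellate markers summed to 29.7 to 36.1 and 34.4 to 72.1 CPM on RFD and to 27.6 to 51.7 and 44.2 to 86.6 on HFD, and lymphocyte markers to 11.8 to 21.5 and 5.85 to 10.9 CPM on RFD and to 12.3 to 42.7 and 7.29 to 52.5 on HFD. β-cell markers summed to 210616 to 348477 and 196743 to 229892 CPM on RFD and to 233191 to 339232 and 138720 to 250130 on HFD. The part of markers other than exocrine ones in the carriers' values was not tested.

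Some of the genes around the carriers passed the test. On RFD 1 of 25 other transporters rose and 2 fell (12%, median log2 fold change -0.04), and 5 of 31 enzymes rose and 2 fell (22.6%, median 0.09), where 7.52% of all genes were called. On HFD 0 rose and 4 fell among the transporters (16%, median -0.04), and 3 enzymes rose and 3 fell (19.4%, median -0.01), where 9.58% of all genes were called. The difference between these lists and the carriers was not tested. Vdac1 fell by 0.50 (adjusted p = 0.00941) on RFD and by 0.56 (adjusted p = 0.00124) on HFD. Mtch1, a carrier-like protein of the outer membrane, fell by 0.49 (adjusted p = 0.0188) and 0.55 (adjusted p = 0.00283), and Mpc1, a subunit of the pyruvate carrier, fell by 0.52 on HFD (adjusted p = 0.00282). Mcu, the pore of the calcium uniporter, rose by 0.52 on RFD (adjusted p = 0.0256). Aldh1l2 rose by 1.96 (adjusted p = 0.00868) and 1.65 (adjusted p = 0.00505), and Gldc, the glycine decarboxylase, by 1.33 (adjusted p = 0.0165) and 2.03 (adjusted p = 0.000340). Got1 rose by 0.60 on RFD (adjusted p = 0.0165), and Mthfd1, a cytosolic folate enzyme, fell by 0.62 on HFD (adjusted p = 0.00318), with 73.2 to 126 CPM against 127 to 152 in controls.

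**Figure D4:**
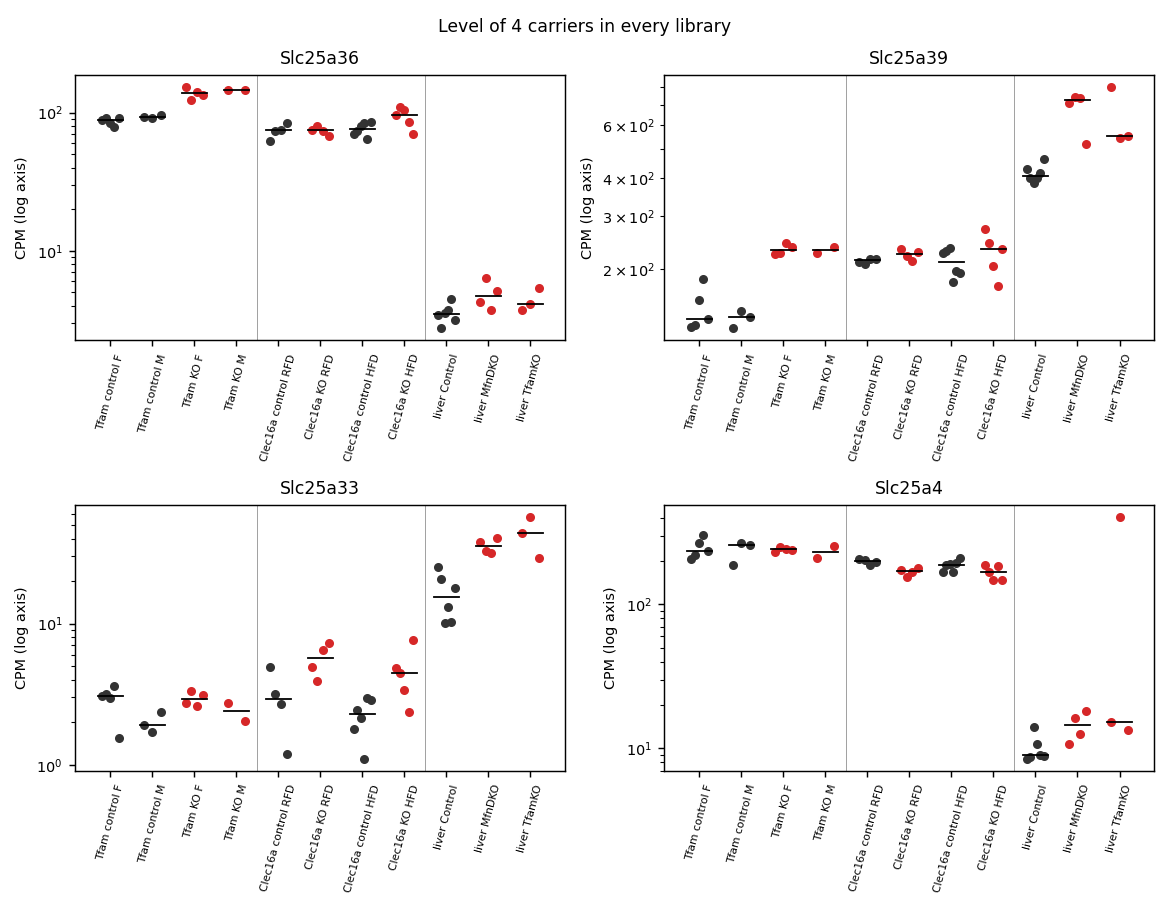
CPM (y axis, log scale) of 4 carriers in all 46 libraries by group (x axis), control in black and KO in red, with a bar at each group's median. Slc25a36 and Slc25a39 are higher in all 6 Tfam KO islet libraries than in their 8 controls, Slc25a39 and Slc25a33 are higher in all Mfn DKO and Tfam KO livers than in the 6 control livers, and 1 Tfam KO liver holds 406 CPM of Slc25a4.

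Among the livers, the second Tfam KO library stood apart before any test. It held the highest or the lowest value of the 13 livers for 28 of 45 carriers, and the next library for 14. Its Afp, the fetal serum protein, was 10779 CPM against at most 8.35 in the other livers, and its Alb, albumin, 17641 CPM against 43452 to 104485. Its hepatocyte markers summed to 22589 CPM, against 58938 to 133751 in the others. For Tfam KO against control livers, counts of calls and log2 fold changes of named genes are therefore given with and without it. Carriers described only as a range are the exception.

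In the Mfn DKO livers, Slc25a33, Slc25a39 and Slc25a27 were called higher. Slc25a28, 1 of the 2 iron carriers, and Slc25a11, the oxoglutarate carrier, were called lower. Of 45 members tested, 3 were higher and 3 lower (13.3%), where 9.87% of 17024 genes were called, 5.23% higher and 4.64% lower. The members' median log2 fold change was -0.12, against 0.02 over all genes. The groups did not overlap for 14 members (31.1%), against 19.2% of all genes. All 6 called members had the same direction among the livers with Xist, an RNA of females, above 50 CPM and among those below it. Because the 6 were called from these same livers, this is not a separate check.

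Slc25a33 stood at 37.9, 32.8, 31.5 and 40.6 CPM in the Mfn DKO livers and at 10.1 to 25.1 CPM (median 15.5) in controls, a log2 fold change of 1.14 (SE 0.26, adjusted p = 0.0175). All 4 DKO livers were above all 6 controls. Slc25a39 stood at 708, 744, 739 and 521 CPM against 387 to 463 (median 408), with no overlap (0.70, SE 0.15, adjusted p = 0.0134). Slc25a27, a relative of the uncoupling proteins at low level, stood at 2.69, 3.79, 3.35 and 4.01 CPM against 1.48 to 2.57 (median 1.90; 0.84, SE 0.22, adjusted p = 0.0304).

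Slc25a28, an iron carrier, stood at 18.8, 21.9, 21.2 and 19.9 CPM against 23.6 to 30.6 (median 27.9) and fell by 0.42 on the log2 scale (adjusted p = 0.0304). Slc25a11, which exchanges oxoglutarate for malate, stood at 80.9, 89.1, 78.6 and 76.0 CPM against 90.6 to 112 (median 103) and fell by 0.35 (adjusted p = 0.0418). For both of these carriers the groups did not overlap.

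Of 17 alternatives, Slc25a11 lost its call under 11, Slc25a28 and Slc25a27 under 8 each, Slc25a33 under 3 and Slc25a39 under 1. All of these carriers lost it with the replicate block. The number of calls leaned on single libraries. It dropped to 3 without control 1 or Mfn DKO 1, and to 2 without control 6 or any of Mfn DKO 2, 3 and 4. It rose to 16 where only the Mfn DKO and control livers were fitted. The shares of all genes called in these fits are not given here. Hepatocyte markers summed to 77343 to 93146 CPM in the Mfn DKO livers and 92492 to 133751 CPM in controls, and fibroblast and stellate markers to 276 to 327 and 204 to 281 CPM. Their part in the carriers' changes was not tested.

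Around the carriers, 2 of 25 other transporters rose and 1 fell in the Mfn DKO livers (12%, median log2 fold change -0.02), and 5 of 32 enzymes rose and 0 fell (15.6%, median 0.01), where 9.87% of all genes were called. Mcu rose by 0.50 (adjusted p = 0.0366). Sfxn5, a sideroflexin, fell by 0.74 (adjusted p = 0.0459). The folate enzymes Mthfd2 and Mthfd1l rose by 2.68 (adjusted p = 0.00975) and 1.88 (adjusted p = 0.0215), and Gldc by 0.81 (adjusted p = 0.0227).

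In the Tfam KO livers 21 of 45 carriers were called, 7 higher and 14 lower (46.7%), where 29.3% of genes were called, 18.1% higher and 11.3% lower. Without the second library the calls numbered 7 of 46, 4 higher and 3 lower, where 14.5% of 17317 genes were called, and 5 of the 7 were among the 21. With all 3 libraries the members' median log2 fold change was -0.15, against 0.03 over all genes, and the groups did not overlap for 14 members (31.1%), against 20.9% of all genes. Without the second library the median was -0.21, against 0.03, and the groups did not overlap for 14 members (30.4%), against 24.5% of all genes.

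Among the carriers called both ways were Slc25a33, Slc25a39, Slc25a27 and Slc25a42. Slc25a33 stood at 43.8, 57.0 and 29.1 CPM against 10.1 to 25.1 in control livers, a log2 fold change of 1.42 (SE 0.28, adjusted p = 0.00355) and of 1.17 without the second library (adjusted p = 0.0217). Slc25a39 stood at 804, 542 and 552 CPM against 387 to 463, with 0.61 (adjusted p = 0.0158) and 0.71 (adjusted p = 0.0149). Slc25a27 stood at 3.32, 6.53 and 3.93 CPM against 1.48 to 2.57, with 1.25 (adjusted p = 0.00285) and 0.91 (adjusted p = 0.0166). Slc25a33, Slc25a39 and Slc25a27 were above every control in every Tfam KO liver.

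Slc25a42, the carrier of coenzyme A, stood at 40.9, 53.9 and 59.5 CPM against 61.6 to 147 (median 119) and fell by 1.14 on the log2 scale (SE 0.24, adjusted p = 0.00501), and by 1.18 (adjusted p = 0.0185) without the second library. Its nearest control was 61.6 CPM, so the groups did not overlap. The carriers called in both kinds of KO liver in the same direction, among them Slc25a27, Slc25a33 and Slc25a39, made up 66.7% of the 6 and 19.05% of the 21. Both comparisons share their 6 controls. Of all genes, 9.87% were called in Mfn DKO and 29.3% in Tfam KO livers, and the share called in both is not given here.

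The values of Slc25a4 and Slc25a24 rested on the second library. Slc25a4 stood at 15.3, 406 and 13.5 CPM against 8.48 to 14.1 in controls, a log2 fold change of 3.86 (SE 0.77, adjusted p = 0.00404) that became 0.53 (adjusted p = 0.121) without it. Slc25a24, a carrier that exchanges ATP-Mg for phosphate, stood at 2.34, 36.0 and 2.77 CPM against 1.35 to 2.38, with 2.83 (adjusted p = 0.00663) and 0.41 (adjusted p = 0.279). For Slc25a10, Slc25a1, Slc25a51, Slc25a45 and Slc25a29 the difference was smaller without it and the call was lost. Slc25a10 stood at 119, 89.4 and 202 CPM against 200 to 306 and fell by 0.88 (adjusted p = 0.0144), and had -0.65 (adjusted p = 0.0603) without it. Slc25a1, the citrate carrier of fat synthesis, stood at 194, 129 and 198 CPM against 211 to 298 and fell by 0.52 (adjusted p = 0.0342), and had -0.35 (adjusted p = 0.148) without it. Slc25a51, the carrier of NAD, and Slc25a45 and Slc25a29 also fell with all 3 libraries, by 0.59, 0.91 and 1.06. Without the second they had log2 fold changes of -0.38, -0.58 and -0.83, with adjusted p-values of 0.0972, 0.0660 and 0.141. A further 9 called members, 2 higher by 0.33 and 0.42 and 7 lower by 0.53 to 2.30, had larger adjusted p-values.

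**Figure D5:**
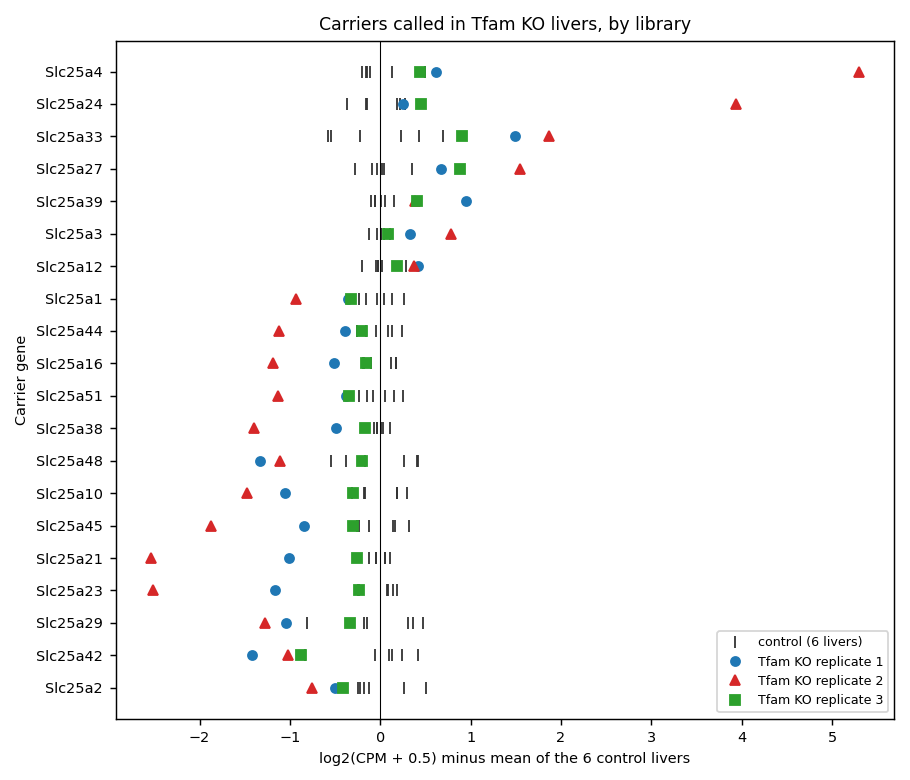
log2(CPM + 0.5) minus the mean of the 6 control livers (x axis) for 20 carriers called in Tfam KO livers (rows); ticks are control livers and the circle, triangle and square are the 3 Tfam KO libraries. The second library (triangle) lies farthest from the controls for most carriers, with Slc25a4 and Slc25a24 more than 3 units above the other Tfam KO livers.

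Slc25a47, the carrier with the highest level in control livers, stood at 372, 43.8 and 551 CPM in the Tfam KO livers and 764 to 1189 in controls. All 3 were below all 6 controls, with a log2 fold change of -1.46 (adjusted p = 0.0505), and of -0.94 (adjusted p = 0.0139) without the second library. In the Mfn DKO livers it stood at 675, 588, 712 and 691 CPM, also below all controls (-0.42, adjusted p = 0.575). Slc25a5, the main adenine nucleotide carrier of liver, stood at 563.6, 540 and 485 CPM in Tfam KO against 406 to 487 CPM in control livers. Slc25a36 stood at 3.72, 4.15 and 5.39 CPM against 2.75 to 4.44 (0.33, adjusted p = 0.240). Without the second library it had 0.37 (adjusted p = 0.309).

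Of the uncoupling proteins, Ucp2 stood at 37.7, 102 and 89.5 CPM in Tfam KO livers, 50.8 to 116 in Mfn DKO livers and 34.2 to 89.6 in controls, with overlapping groups (Tfam KO 0.50, adjusted p = 0.347, and Mfn DKO 0.42, adjusted p = 0.465). Without the second library the Tfam KO value of Ucp2 was 0.24 (adjusted p = 0.762). Ucp1 was left out by the filter with all libraries. It had 442 counts (7.24 CPM) in the first Tfam KO liver, 6 and 8 in the other two, 0 to 14 in controls and 0 in the Mfn DKO livers. It was called without the second library (log2 fold change 5.60, adjusted p = 0.0154), a value that rests on 1 library. Adipocyte markers summed to 10.97 CPM in that first Tfam KO liver, 38.4 in the second and 2.18 to 5.99 in all other livers, and their part was not tested.

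The Tfam KO calls fell to 11 without control 1, to 10 without Tfam KO 1 and to 7 without Tfam KO 2. Without Tfam KO 3 they numbered 29 of 46, where 41.8% of 17552 genes were called. Where only the Tfam KO and control livers were fitted there were 8 calls, 5 higher and 3 lower, so that lower calls no longer outnumbered higher ones. The shares of all genes called in that fit, in either direction, and without control 1 or Tfam KO 1 are not given here. Tfam KO against Mfn DKO livers gave 0 of 45 called, where 0.294% of genes were called. At an unadjusted p under 0.05 this comparison had 12 members and 3481 of 17024 genes. DESeq2 called 3 there, Slc25a15, Slc25a42 and Slc25a45, all lower in Tfam KO and named after their values were seen, and without the third Tfam KO library 16 of 46 were called, with 24.0% of 17552 genes. In the Tfam KO livers, mitochondrial genes made up 0.158, 0.551 and 0.203% of counts, against 3.38 to 4.62% in controls and 2.04 to 2.80% in Mfn DKO livers.

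Of the other transporters, 3 of 25 rose and 4 fell in the Tfam KO livers (28%, median log2 fold change 0.11), near the 29.3% of all genes, and of the enzymes 7 of 32 rose and 9 fell (50%, median -0.28). Without the second library, 1 transporter rose and 1 fell (8%, median -0.07), and 6 enzymes rose and 6 fell (37.5%, median -0.22), where 14.5% of all genes were called. Micu2, a regulator of the calcium uniporter, rose by 0.46 (adjusted p = 0.0121) and had 0.33 without the second library (adjusted p = 0.0736). Sfxn5 fell by 1.20 (adjusted p = 0.00413), and by 0.89 without it (adjusted p = 0.00632). Mthfd2 rose by 4.63 (adjusted p = 0.000497), with 4.09 to 68.2 CPM against 0.738 to 1.66, and by 3.22 without the second library (adjusted p = 0.000812). Aldh1l2 rose by 5.41 (adjusted p = 0.000924), with 1.25 to 52.1 CPM against 0.0993 to 0.867, and by 3.80 without it (adjusted p = 0.00410). Mdh2, the malate dehydrogenase of the matrix, rose by 1.21 (adjusted p = 0.00259), and by 0.82 without it (adjusted p = 0.0108). Against the Mfn DKO livers, 0 of 25 transporters and 1 of 32 enzymes were called in the Tfam KO livers, Aldh1l2 with 4.67 (adjusted p = 0.0449). That value includes the second library, and its value without it is not given here.

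Between tissues, 4 carriers were called in both the Tfam KO islets and the Tfam KO livers, 28.6% of the 14 and 19.05% of the 21. They were 9.30% of the 43 members tested in both, where 9.04% of 15565 genes were called in both. Without the second Tfam KO liver, 2 carriers were left, Slc25a39 and Slc25a42, 4.65% of 43 members against 5.25% of 15711 genes. Slc25a39 was higher in both, with log2 fold changes of 0.69 and 0.61. Slc25a29 and Slc25a42 were lower in both, by 0.48 and 1.06 and by 0.22 and 1.14. The fourth, Slc25a44, named after its values were seen, rose in islets by 0.17 and fell in livers by 0.53. Without the second Tfam KO liver, Slc25a44 had -0.30 in livers (adjusted p = 0.156). Slc25a36 was called in islets and not in livers, and Slc25a33 in livers and not in islets. The difference between tissues was not tested for any carrier.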

How the data were processed

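The 46 deposited files give counts, CPM and TPM per gene, per the file headers. Tests used the deposited counts, all of them whole numbers, without change. The deposited TPM were used only to compare genes and tissues, and the deposited CPM, counts over the library total, only as a check. The submitters' processing notes name STAR 2.6.1b, RSEM 1.3.1, featureCounts, DESeq2 and GRCm38, with no roles given. Whether mates of a read pair were counted separately is not given in the sources used here, and counts from 1 to 20 were even in 59.3 to 63.0% of cases in the Tfam islets, 40.3 to 44.3% in the Clec16a islets and 63.2 to 66.6% in the livers.

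Groups were read from the labels. A separate fit was made for each experiment, in R 4.3.3 with edgeR 4.0.16 (TMM, filterByExpr on the group, two-sided quasi-likelihood F-test, Benjamini-Hochberg over all genes), with sex as a term in the Tfam islets and 1 mean per group elsewhere. The fit was tested on simulated data. Standard errors are the log2 fold change over the square root of F. In all, 10 comparisons were made. Alternatives were other size factors, other filters, DESeq2 1.42.0, a replicate block, covariates for exocrine markers, lane or Xist, fits of only the compared groups, and leaving out each library.

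The members and lists were chosen with earlier results of these data known. Named by rule were at most 12 called members per comparison with the smallest adjusted p, the 6 highest by TPM in each control tissue, Ucp1 to Ucp3, members with at most 3 counts everywhere, the targeted genes, and at most 3 called genes per list. Members outside this rule are named as chosen after their values were seen. The values of 1 carrier and 1 other transporter are not reported here, though both were counted.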

Additional observations from a re-analysis of the deposited data

Results flagged for a closer look

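Of 81 group checks on single carriers, 4 held a library far from the others of its group, and chance flags about 1 in 20. Among them, Slc25a29 stood at 7.88 CPM in the first female Tfam KO islet library and at 11.7 to 12.2 in the other 3. Slc25a40 stood at 16.3 CPM in the same library and at 15.0 in the other 3. Slc25a39 stood at 521 CPM in the fourth Mfn DKO liver and at 708 to 744 in the other 3. None of 85 differences between effects in sexes, diets or genotypes passed its test.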

How the results depend on the processing

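In the Tfam KO islets the count of called carriers ran from 10 to 15 when 1 library was left out, and 9 carriers kept their call under all 21 alternatives (Slc25a14, Slc25a15, Slc25a28, Slc25a29, Slc25a36, Slc25a39, Slc25a40, Slc25a53 and Ucp2). Leaving out 1 library gave 0 to 1 calls on RFD and 0 to 3 on HFD in the islets labelled Clec16a KO, 2 to 7 in Mfn DKO livers, 7 to 29 in Tfam KO livers and 0 to 16 for Tfam KO against Mfn DKO livers. The exocrine covariate gave 2 calls on RFD, and the filter of 10 counts, DESeq2, the exocrine covariate and the lane gave 1 each on HFD. DESeq2 gave 3 for Tfam KO against Mfn DKO livers. Fits of only the compared groups gave 16 calls in Mfn DKO and 8 in Tfam KO livers. Whether replicate numbers pair the libraries was not settled. Of same-numbered pairs, 12 of 16 Tfam islet, 5 of 25 Clec16a islet and 5 of 10 liver pairs correlated above 0.1. In the same order, 7 of 13, 0 of 18 and 3 of 11 libraries correlated best with their own number. With the replicate block the calls were 12 in Tfam KO islets, 0 in Mfn DKO livers and 1 in Tfam KO livers. Shares of all genes called under these alternatives are not given here, except where stated above for fits that left out 1 library. Directions reversed for values that passed no test. On RFD, Slc25a36 was -0.060 with the exocrine covariate and ran from -0.066 (without control 1) to 0.073 when 1 library was left out, and Ucp2 was -0.014 and ran from -0.013 (without control 1) to 0.079. For Tfam KO against Mfn DKO livers, Slc25a4 ran from -0.0074 to 3.85 and Slc25a24 from -0.0055 to 2.92 when 1 library was left out, both lowest without the second Tfam KO library. The cause of these changes was not tested. At the lowest depth, 3 counts stand for 0.185 CPM, so carriers near that level could not be compared.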

Other observations

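Within the Clec16a islets the libraries also differed in a way the labels do not give, in a pattern chosen after its values were seen and not tested. In 6 of 19 libraries, from all 4 groups, the phosphate carrier Slc25a3 stood at 285 to 334 CPM, and in the other 13 at 212 to 270 CPM. In the same 6 libraries Slc25a5 stood at 94.2 to 121 CPM against 67.3 to 86.3, and Slc25a14 at 19.7 to 22.7 against 11.8 to 17.6. Slc25a23, a carrier of ATP-Mg and phosphate, stood at 65.4 to 99.9 CPM there and at 98.2 to 146 in the others. Mitochondrial genes made up 0.970 to 1.80% of counts in the 6 libraries and 1.81 to 3.06% in the 13.

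The summed TPM of the 50 carriers ran from 1204 to 1445 in Tfam control and from 1784 to 2015 in Tfam KO islets. It ran from 3075 to 3452 in control, 3648 to 4346 in Mfn DKO and 3744 to 5582 in Tfam KO livers. TPM are shares of a library, so this sum also moves with all other transcripts.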
